A study of Mus musculus with 310 samples.

Results

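Desmosomes are the spot junctions that couple the keratin filaments of neighbouring keratinocytes, and 9 genes that encode their parts were followed here through single cells of mouse tail epidermis. The members were taken from a named list: Dsp, Jup, Pkp1, Pkp3, Dsg1a, Dsg3, Dsc2, Dsc3 and Perp. All 9 of the 9 listed genes are in the deposited count table, which holds 14068 genes and 310 cells, and no measured value entered the choice.

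The study asked whether epidermal cells far from a healed wound keep a trace of it with age. Mice (CBA and C57BL/6 mixed strain) carried Lrig1-EGFP-ires-CreERT2 and a Rosa26 tdTomato reporter behind a floxed stop, and both groups had a single topical hydroxytamoxifen dose at 6 to 8 weeks of age. The tdTomato label therefore marks cells in which the Lrig1 locus drove Cre at that time and the descendants of those cells, not all tail keratinocytes. Sorted tdTomato+ cells were made into full-length Smart-seq2 libraries that carry no molecular identifiers, and several reads may stem from 1 molecule. The time labels, 38w and 38wUW, give 38 weeks for both groups, and the paper describes its long-term samples as aged skin. From which event the 38 weeks are counted, and the age at collection, are not given in the labels. By the labels, 38w comprised 145 cells (replicate tags RepI with 70 cells and RepL with 75) and 38wUW comprised 165 (RepM with 82 and RepN with 83). RepI was spread over plates C114 (53 cells) and C118 (17 cells), and the other tags had 1 plate each. UW is not spelled out in the labels, and neither group is marked there as wounded, so each difference is given as 38w against 38wUW and its direction relative to wounding is open. How many animals stand behind a tag is not given in the labels, and the spread between tags may be partly technical.

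In a desmosome, the transmembrane cadherins (desmogleins and desmocollins) bind those of the next cell. Plakoglobin and the plakophilins sit in the plaque below the membrane and tie the cadherin tails to desmoplakin, which anchors the keratin filaments. In stratified epidermis Dsg3 is known as a cadherin of the lower layers and Dsg1 and Dsc1 as cadherins of the upper, differentiated layers.

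The libraries held 11703 to 721532 reads per cell (median 61288), with 1992 to 5840 genes detected in each. Plate C114 stood apart: its cells gave a median 31.5% of their reads to ribosomal protein genes, against 3.38% to 6.62% on the other plates, and mitochondrial genes took 2.77%, against 9.69% to 33.8%. It supplied most reads of RepI, so the values of the members are given below by replicate and also by these plates. The keratinocyte keratins Krt14 and Krt5 were found in 279 and 231 of the 310 cells. Of the other cell types checked, at least 1 read of the immune genes in the table (Ptprc and Lyz2) was found in 29 cells, of the melanocyte genes (Pmel and Dct) in 103 and of 5 fibroblast genes in 97. Summed over a group, the fibroblast genes stood at 47.3 CPM (reads of a gene scaled to a common library total) in 38w and 11.1 CPM in 38wUW, the immune genes at 1.93 and 1.30 CPM, and the melanocyte genes at 9.98 and 9.34 CPM. Of 3 endothelial markers, Cdh5 was not analysed here, Kdr had 8 reads in all, and Pecam1 had reads in all 310 cells, so Pecam1 did not mark a separate cell type in this table. The 2 endothelial genes together summed to 1264 and 8774 CPM in the 38w replicates and to 7674 and 2640 CPM in the 38wUW replicates, and the part of these other markers in the results below was not tested. Where replicates are not named, values follow in the order RepI, RepL, RepM, RepN.

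Dsp and Jup are the plaque genes whose upstream sequences are printed here, with positions in the mouse genome from build GRCm38 (GENCODE M21). Dsp (desmoplakin, ENSMUSG00000054889) spans bases 38151294 to 38198577 of chromosome 13 on the plus strand. Jup (plakoglobin, ENSMUSG00000001552) spans 100368958 to 100397763 of chromosome 11 on the minus strand. They are shown because both were called higher in differentiated cells below, and they were the 2 of the 9 members matched in the RefSeq promoter table used (GRCm38.p6). Each run is the 250 bases before the RefSeq start, on the strand of the gene, and capitals mark the GC box GGGCGG or its reverse complement. Dsp is shown as chr13:38151044-38151293 on the plus strand, and Jup as chr11:100397791-100398040 on the minus strand.
Dsp: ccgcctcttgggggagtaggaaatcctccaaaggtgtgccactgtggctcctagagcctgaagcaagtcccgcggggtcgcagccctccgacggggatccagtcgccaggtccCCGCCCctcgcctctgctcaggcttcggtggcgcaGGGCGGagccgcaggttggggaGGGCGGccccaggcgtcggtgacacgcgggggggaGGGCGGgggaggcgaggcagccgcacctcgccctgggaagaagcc
Jup: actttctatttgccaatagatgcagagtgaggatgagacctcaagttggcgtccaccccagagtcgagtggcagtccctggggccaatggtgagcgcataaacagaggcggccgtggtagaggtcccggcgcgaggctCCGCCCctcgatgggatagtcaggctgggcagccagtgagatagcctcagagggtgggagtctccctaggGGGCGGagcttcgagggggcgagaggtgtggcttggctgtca
The run before Dsp held 4 GC boxes and that before Jup held 2, and 32.7% of all 32851 upstream runs of the same length in the table held at least 1. The GC content was 72.4% before Dsp and 62.0% before Jup, with a median of 52.4% over the table. Neither run held the letters TATAAA (in 12.4% of all runs), TGANTCA, the AP-1 motif (6.75%), or AACNNGTT, the grainyhead-like motif (3.64%), with both strands read. No match overlapped another, and a match is a description of these letters only.

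Perp and Dsp carried most of the reads of the 9 genes. The members summed to 7257 and 13968 CPM in the 38w replicates and to 14977 and 14375 CPM in the 38wUW replicates. Perp took 40.8% to 49.8% and Dsp 25.5% to 37.2% of that sum, and Dsc3, a desmocollin, came next with 8.62% to 17.6%. Per kilobase of transcript, Perp stood first at 2941 ± 746 CPM per kb (SD over the 4 replicates, n = 4), above Dsp in every replicate with no overlap of their ranges. Dsp followed at 390 ± 159, Dsc3 at 295 ± 152 and Dsg1a at 161 ± 72.4 CPM per kb. Pkp1 (44.0 ± 16.0), Jup (43.3 ± 28.1) and Dsg3 (38.1 ± 16.7) lay close together, and Pkp3 (20.7 ± 19.9) and Dsc2 (5.88 ± 4.40) were last. From Dsp down, the ranges of each neighbouring pair overlapped, and of these pairs only Dsc3 over Dsg1a kept its order in all 4 replicates.

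The other members lie at 4 further places of the genome. Pkp1 (plakophilin 1, ENSMUSG00000026413) spans 135871395 to 135919207 of chromosome 1 on the minus strand, and Pkp3 (plakophilin 3, ENSMUSG00000054065) spans 141078218 to 141090510 of chromosome 7 on the plus strand. The 4 cadherins are neighbours on chromosome 18. The desmocollins Dsc3 (ENSMUSG00000059898, 19960930 to 20002351) and Dsc2 (ENSMUSG00000024331, 20030633 to 20059554) lie on the minus strand. The desmogleins Dsg1a (ENSMUSG00000069441, 20310811 to 20343350) and Dsg3 (ENSMUSG00000056632, 20510274 to 20547459) lie on the plus strand. Perp (ENSMUSG00000019851), a small tetraspan membrane protein needed for desmosome assembly in stratified epithelia, spans 18845020 to 18857073 of chromosome 10 on the plus strand.

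The members differed in how many cells held them. Cells were thinned to a common 20000 reads, a depth that 277 of the 310 had (138 of 38w and 139 of 38wUW). At that depth 2 to 9 members were found per cell, with a mean of 6.25 ± 1.32 (SD over cells) and 7 members in the largest number of cells, 84. By replicate the mean was 6.31 and 6.29 in 38w and 6.66 and 5.80 in 38wUW, so the groups did not separate. Dsp, Perp and Dsc3 were near ubiquitous, with at least 1 read in 92.6% to 100% of the thinned cells of every replicate. Jup was found in 80.9% and 84.3% of the thinned cells of the 38w replicates, and in 75.0% and 49.3% of those of RepM and RepN. Pkp3 ran from 32.0% of the thinned cells in RepN to 67.6% in RepI, and within RepI from 23.5% of 17 cells on C118 (95% Wilson interval 9.56% to 47.3%) to 82.4% of 51 cells on C114 (69.7% to 90.4%). Dsg3 was found in 52.9% and 64.3% for 38w and in 73.4% and 77.3% for 38wUW, both 38w replicates being below both 38wUW replicates. Such intervals cover counting error only.

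None of these shares passed an exact permutation test (two-sided, 4 replicates), and with 6 ways to split them the smallest p it allows is 0.333. The widest gaps were those of Jup, 82.6% ± 2.41 in 38w against 62.2% ± 18.1 in 38wUW (SD, n = 2 each), and of Dsg3, 58.6% ± 8.02 against 75.4% ± 2.75, each with an exact permutation p = 0.333. Without thinning, the share of cells with Jup was 93.8% ± 1.28 in 38w and 79.996% ± 1.03 in 38wUW, and that of Dsg3 71.2% ± 6.398 and 84.8% ± 2.70.

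Dsc2, the most widely expressed desmocollin outside stratified epithelia, was rare. It had reads in 18 of the 310 cells, 5 of 38w and 13 of 38wUW, and in 8 of these with 10 reads or more. A single infundibular or duct cell of RepN held 511 of its 908 reads (56.3%), and the leading 3 cells together held 82.9%. In RepI it had 2 reads in 1 cell. Any difference in its level therefore rests on a few cells.

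Between the groups, the plaque genes showed no called difference. Summed over all cells of a replicate, so that fewer expressing cells and less RNA per cell cannot be told apart, Dsp stood at 1847 and 3696 CPM in 38w, against 5565 and 3869 CPM in 38wUW. The 38w replicates were the lower ones, RepL by little, and the log2 fold change of 38w against 38wUW was -0.53 ± 1.17 (SE; edgeR adjusted p = 0.91). Jup stood at 269 and 115 CPM in 38w and at 111 and 60.8 CPM in 38wUW. Only RepI was clearly high, and the log2 fold change was 1.42 ± 0.88 (edgeR adjusted p = 0.69). Pkp1 stood at 311 and 162 CPM in 38w against 205 and 145 CPM in 38wUW, with overlap (log2 fold change 0.69 ± 0.87, edgeR adjusted p = 0.84). Pkp3 stood at 145 and 36.9 CPM against 45.7 and 13.5 CPM, with overlap (log2 fold change 1.88 ± 0.98, edgeR adjusted p = 0.65).

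None of the cadherins was called either, and like Dsp all 4 had a fold change below 0. Dsg1a stood at 328 and 1010 CPM in 38w, against 1291 and 1031 CPM in 38wUW (log2 fold change -0.56 ± 1.01, edgeR adjusted p = 0.89). Dsg3 stood at 117 and 185 CPM in 38w and at 306 and 339 CPM in 38wUW. The 38wUW replicates were close together and above both 38w replicates (log2 fold change -0.85 ± 0.86, edgeR adjusted p = 0.80). Dsc3 stood at 628 and 1853 CPM against 1291 and 2527 CPM, with overlap (log2 fold change -0.38 ± 1.09, edgeR adjusted p = 0.94). Dsc2 stood at 0.206 and 22.9 CPM against 44.96 and 40.7 CPM, the 38w values coming from 5 cells (edgeR adjusted p = 0.73). Perp, the tetraspan protein, stood at 3612 and 6886 CPM against 6118 and 6350 CPM, and its log2 fold change was 0.00 within rounding (SE 1.24, edgeR adjusted p = 0.999).

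**Figure D1:**
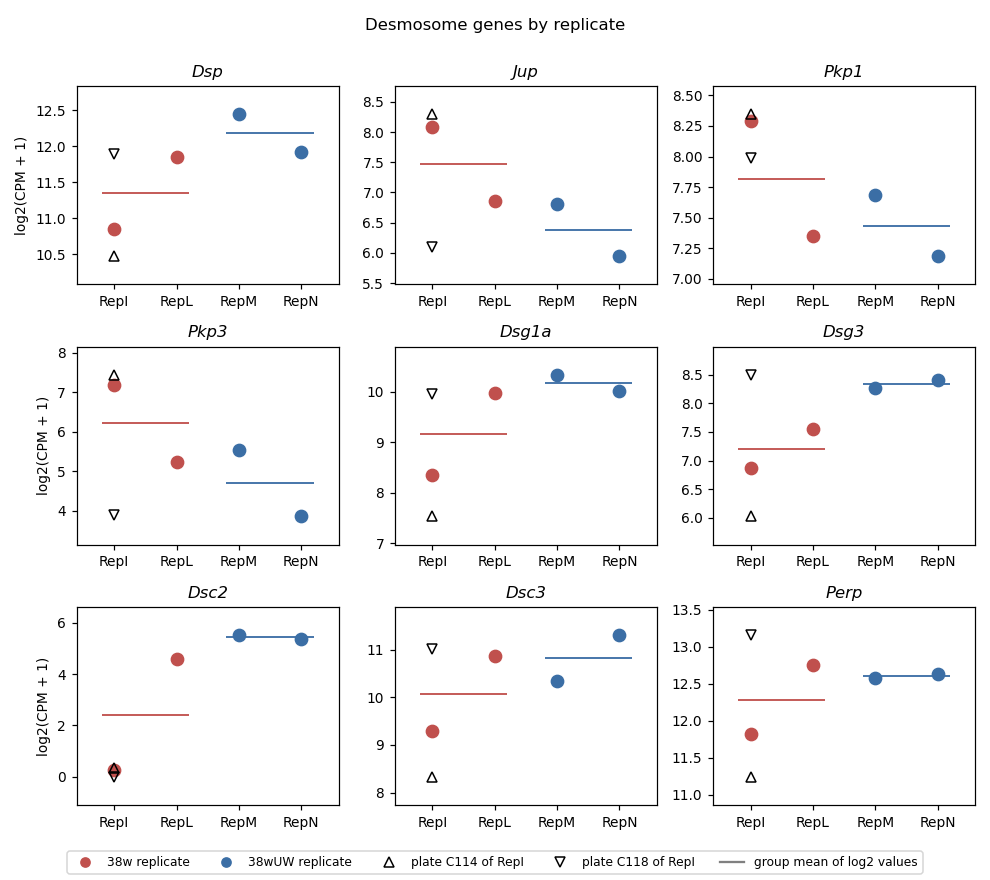
Level of each desmosome gene as log2(CPM + 1) (y axis, its range differing between panels) in the 4 replicates (x axis), with red points for 38w, blue points for 38wUW, lines for the group means, and open triangles for the plates C114 (pointing up) and C118 (pointing down) of RepI. RepI is the highest replicate for Jup, Pkp1 and Pkp3 and the lowest for the other 6 genes, and for Dsp, Jup, Pkp3 and Dsc3 the C118 triangle lies inside the range of the other 3 replicates.

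In all, 0 of the 9 members and 0 of 11757 tested genes (0%) passed the edgeR threshold (adjusted p under 0.05) between 38w and 38wUW. At an unadjusted p under 0.05 there were 0 members and 949 genes, and DESeq2 called 67 genes and 0 members. For 5 members (Dsp, Jup, Dsg1a, Dsg3 and Dsc2) the replicates of the groups did not overlap, as for 38.8% of all tested genes. The median log2 fold change was -0.38 over the members and 0.12 over all tested genes. Without RepL, which leaves 38w with 1 sample taken to vary like the others, 9.46% of 12931 genes were called, and among them Jup (log2 fold change 1.99, adjusted p = 0.046), Pkp3 (2.64, adjusted p = 0.011) and Dsc2 (adjusted p = 9.9e-05, with 2 reads on the 38w side). Without RepI, 0 members were called, against 1.02% of 12230 genes.

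The values of the members differed between the plates of RepI. On C114, Jup, Pkp1 and Pkp3 stood at 312, 324 and 173 CPM, and on C118, from the same replicate tag, at 67.5, 252 and 14.0 CPM. Dsp was at 1425 CPM on C114 and 3812 on C118, Dsg1a at 185 and 993, Dsg3 at 64.2 and 360, Dsc3 at 322 and 2053 and Perp at 2428 and 9124. These differences inside 1 replicate tag were larger than the differences between the groups for 7 of these 8 members, the exception being Pkp1.

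GC content of the transcript and, less closely, its length moved with this. Across 10338 genes with at least 100 reads, the log2 level on C114 minus the mean of the other 4 plates correlated with transcript GC content at a Spearman rho of 0.63, and each other plate, set against the remaining plates without C114, gave -0.20 to 0.19 (across genes, which are not independent replicates). With transcript length the C114 difference correlated at a Spearman rho of -0.41, and the other plates gave -0.07 to 0.13. The members' shortest transcripts were those of Perp (1952 bases), Pkp3 (2919 bases) and Jup (3205 bases). The median of the C114 difference rose from -2.25 in the fifth of genes with the lowest GC content to 1.79 in the fifth with the highest. Pkp3 and Jup have the members' GC-richest transcripts (60.3% and 58.8%) and stood 2.85 and 1.87 log2 units above the other plates on C114, and Pkp1 (53.8%) stood 0.80 above. Dsp (51.8%) and Perp (48.0%) stood at -1.55 and -1.53 log2 units. Dsg3 (43.6%), Dsc2 (42.5%), Dsc3 (42.4%) and Dsg1a (41.9%) stood at -2.17, -5.06, -2.54 and -2.54 log2 units. After a correction for transcript GC content, chosen after seeing the data, the log2 fold change of Jup between the groups went from 1.42 to 0.33, that of Pkp3 from 1.88 to 0.64 and that of Pkp1 from 0.69 to 0.12. Dsp went from -0.53 to -0.65, Dsg1a from -0.56 to -0.09, Dsg3 from -0.85 to -0.33 and Dsc2 from -1.67 to -1.47, and Dsc3 (0.12) and Perp (0.19) turned. With RepI taken from C118 alone, the log2 fold changes were 0.34 for Jup, 0.03 for Pkp3, 0.51 for Pkp1, -0.07 for Dsp, 0.02 for Dsg3 and -1.63 for Dsc2, which had 0 reads on C118, and those of Dsg1a (0.04), Dsc3 (0.29) and Perp (0.62) were above 0. No member was called in either fit. The part of GC content in the differences between the groups was not tested otherwise, and that of transcript length was not tested.

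**Figure D2:**
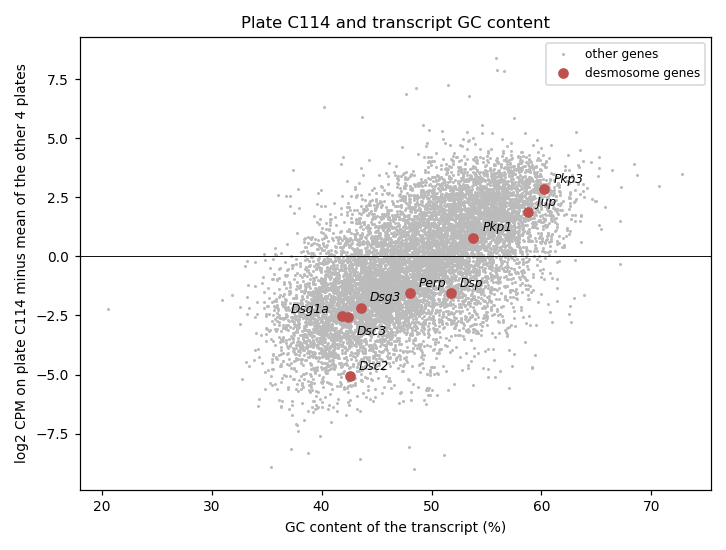
Transcript GC content in percent (x axis) against the log2 level on plate C114 minus the mean of the other 4 plates (y axis) for 10338 genes, with the desmosome genes in red. Pkp3, Jup and Pkp1 sit on the right and above 0, and the 4 cadherins sit together on the left, at -5.06 to -2.17 log2 units.

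Desmosome genes differed between kinds of cells. Each cell was placed in 1 of 5 marker classes by its highest mean score over 7 to 9 marker genes per class, none of them a member, where that score was above 0 and at least 0.1 above the next. This gave 79 basal cells (markers such as Krt14 and Krt5), 65 bulge cells (Cd34, Postn, Lgr5 and others), 53 interfollicular differentiated cells (Krt1 and Krt10), 62 infundibular and duct differentiated cells (Krt79 and Cst6) and 26 sebocyte cells (Scd1 and Pparg), and 25 cells with no class. A class of this kind is a range of a score and not a cell type. Cd34 had a read in 26.2% of the cells of the bulge class and in 1.27% to 9.43% of those of the other classes. The paper uses Postn as a marker of the infundibulum, so the bulge class is not shown to consist of bulge stem cells. A margin under 0.2 between the leading scores was found in 42 cells. The differentiated classes shared markers: Krt10 had a read in 96.2% of interfollicular and 87.1% of infundibular and duct differentiated cells, and the median score of the latter on the interfollicular markers was 0.05, against -0.25 in basal and -0.43 in bulge cells. Median depth per cell was 56225 to 78903 reads over the 5 classes.

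Counts were summed per plate and class, in the 20 sums with at least 5 cells, and fitted with the plate as a block. The RepI bulge cells, 2 on C114 and 3 on C118, were too few on either plate and entered no sum of this fit. Values by replicate below include them, as a class of 5 cells. Between the differentiated classes (interfollicular, and infundibular and duct) and the undifferentiated ones (basal and bulge), edgeR called 4 of the 9 members higher and 0 lower, against 2.25% of 9996 tested genes called higher and 2.78% called lower. The members' median log2 difference was 1.34, and that of all tested genes was -0.13. By value, 8 of the 9 members were higher in the differentiated classes, and Dsg3 was lower.

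Dsg1a, the desmoglein of upper layers, had the widest difference. It stood at 786, 3877, 1644 and 1613 CPM (RepI, RepL, RepM and RepN) in the interfollicular differentiated class, and at 402, 2151, 3375 and 3710 CPM in the infundibular and duct class. In the basal class it stood at 66.0, 339, 179 and 152 CPM, and in the bulge class at 100.6, 10.01, 100.3 and 175 CPM. Every differentiated value was above every undifferentiated one. The log2 difference was 4.32 ± 0.71 (SE; edgeR adjusted p = 0.0011), and it was positive in each of the 4 replicates (2.77 to 5.56). Among thinned cells a read of Dsg1a was found in 93.9% of interfollicular and 91.4% of infundibular and duct differentiated cells, in 37.7% of basal, 33.9% of bulge and 8.33% of sebocyte cells.

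Dsg1a has near-identical neighbours, Dsg1b and Dsg1c, among which the estimated counts may be split, and 38.7% of its values in the table were not whole. The sum of the 3 genes kept the order of the classes: 2609 ± 1679 CPM in the interfollicular differentiated class and 2994 ± 1952 in the infundibular and duct class, against 274 ± 136 in basal and 144 ± 80.6 in bulge cells (SD, n = 4 replicates each).

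The plaque genes Jup and Dsp also rose. Jup, whose protein links the cadherin tails to desmoplakin, averaged 271 ± 157 CPM in interfollicular and 188 ± 72.2 in infundibular and duct differentiated cells, against 83.9 ± 65.2 in basal and 67.6 ± 37.3 in bulge cells (SD, n = 4), a log2 difference of 1.86 ± 0.37 (SE; edgeR adjusted p = 0.0050). Dsp, the keratin anchor, stood in the infundibular and duct class at 3100, 6612, 12159 and 8366 CPM over the replicates, and in the basal class at 637, 4056, 2079 and 2304 CPM. Each replicate had more in the former. Dsp stood at 2652, 5269, 3450 and 3330 CPM in interfollicular differentiated cells and at 3761, 1755, 3062 and 2983 CPM in bulge cells. These ranges overlapped, and in RepI the bulge value was the higher. The log2 difference of the pooled classes was 1.55 ± 0.30 (SE; edgeR adjusted p = 0.0046). Single replicates decided these calls: the adjusted p of Dsp was 0.055 without RepI and that of Jup 0.060 without RepM, while Dsg1a and Perp stayed past the threshold without any 1 replicate.

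Perp rose too, by a log2 difference of 1.34 ± 0.21 (SE; edgeR adjusted p = 7.5e-04). It averaged 10093 ± 3615 CPM in interfollicular and 9246 ± 5219 in infundibular and duct differentiated cells, against 3982 ± 1513 in basal, 6225 ± 2430 in bulge (SD, n = 4) and 2679 ± 680 in sebocyte cells (n = 3). By replicate its difference was positive in 3 of 4, with RepI at -0.06 on the log2 scale. That RepI value includes the 5 bulge cells that lie outside the fit, and it mixes plates C114 and C118.

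The plakophilins were not called in this contrast. Pkp1 averaged 258 ± 156 and 259 ± 107 CPM in the interfollicular and the infundibular and duct differentiated classes and 148 ± 68.6 and 223 ± 124 in the basal and bulge classes (log2 difference 0.73 ± 0.36, edgeR adjusted p = 0.30). Pkp3 was flat beside its spread, at 84.5 ± 69.7 and 65.0 ± 61.8 CPM against 69.4 ± 60.1 and 23.1 ± 9.63 (log2 difference 0.76 ± 0.41, edgeR adjusted p = 0.36). Dsc3 averaged 2559 ± 1234 CPM in interfollicular differentiated cells and 1386 to 1597 CPM in the basal, bulge and infundibular and duct classes (log2 difference 0.68 ± 0.28, edgeR adjusted p = 0.19). Dsc2 had a log2 difference of 2.93 ± 1.40 (edgeR adjusted p = 0.29), which was 1.39 without RepL (edgeR adjusted p = 0.97), 1.30 with plate-centred markers and 1.57 in thinned cells, 9 of its 18 cells being infundibular and duct differentiated, with 692 of its 908 reads. In the bulge class it had 2 reads in 65 cells.

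Across all 5 classes, 6 of the 9 members were called (Dsp, Jup, Dsg1a, Dsg3, Dsc3 and Perp), against 6.25% of 9996 tested genes. Dsg3 joined them although its differentiated against undifferentiated difference was not called (-0.61 ± 0.36, edgeR adjusted p = 0.42), with an adjusted p of 0.0074 across classes. It stood in bulge cells at 592, 205, 538 and 399 CPM, in basal cells at 73.5, 270, 232 and 374 CPM and in interfollicular differentiated cells at 41.5, 68.0, 214 and 137 CPM. Sebocyte cells had 9.09, 64.6 and 29.2 CPM in RepL, RepM and RepN, below every value of the basal and bulge classes. For 6 members (Dsp, Jup, Pkp1, Dsg3, Dsc3 and Perp) the lowest mean was that of the sebocyte class, for which RepI had too few cells. Over RepL, RepM and RepN alone, Jup averaged 49.1 CPM in bulge and 53.1 CPM in sebocyte cells, so for Jup that order rests on RepI. The mean number of members found per thinned cell was 4.79 in sebocyte cells, 5.84 in bulge and 6.07 in basal cells. It was 6.73 in interfollicular and 7.14 in infundibular and duct differentiated cells. Without plate C114, the members called across classes were 5, Dsc3 dropping out (adjusted p = 0.065), and the 4 called in the contrast were the same genes. Across classes, Jup had an adjusted p of 0.065 without RepI and 0.053 without RepM. Dsg3 had 0.079 without RepL and 0.10 without RepN, and Dsc3 had 0.13, 0.11 and 0.14 without RepI, RepL and RepN.

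**Figure D3:**
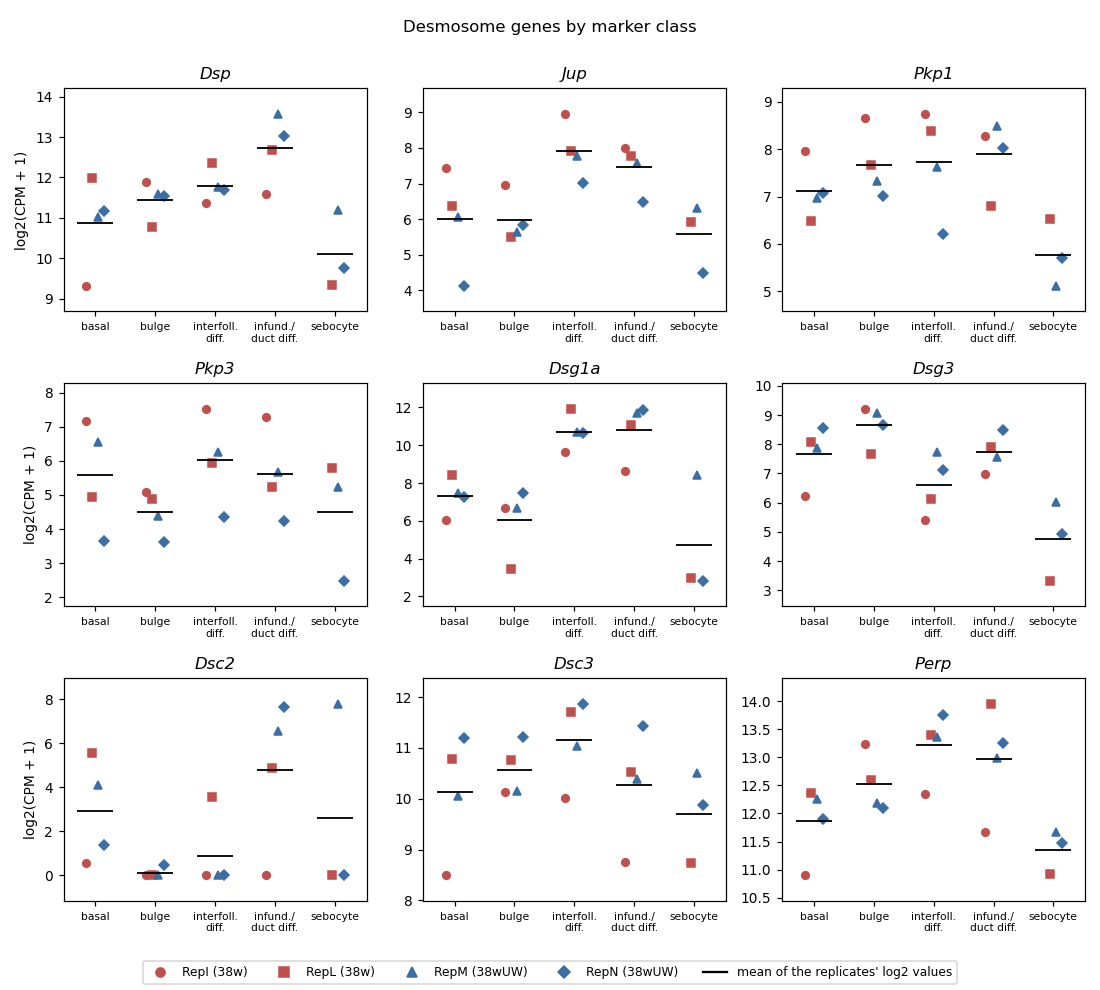
Level of each desmosome gene as log2(CPM + 1) (y axis, its range differing between panels) in the 5 marker classes (x axis), 1 point per replicate with at least 5 cells of the class, red for 38w and blue for 38wUW, with a line at the mean. Dsg1a is higher in both differentiated classes than in basal and bulge cells in every replicate, Dsg3 is highest in bulge cells and lowest in sebocyte cells, and Dsc2 is at or near 0 in bulge cells.

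The desmoglein make-up of a cell, which no library size enters, differed between the classes by value. Of the reads of Dsg1a and Dsg3 together, Dsg1a took 93.5% ± 4.16 in interfollicular and 88.0% ± 8.13 in infundibular and duct differentiated cells, against 43.9% ± 11.2 in basal and 16.3% ± 10.6 in bulge cells (SD, n = 4 replicates each). In sebocyte cells, which held few reads of either gene, it took 42.9%, 84.0% and 17.4% in RepL, RepM and RepN, a range that overlapped those of all classes but the interfollicular differentiated one. By replicate, the lowest differentiated value was 76.2% (RepI, infundibular and duct) and the highest undifferentiated value was 55.6% (RepL, basal). On C114 alone the share was 89.9% in interfollicular differentiated and 40.3% in basal cells, and on C118 it was 98.1% and 63.3%. Among thinned cells, 44 of 49 interfollicular and 50 of 58 infundibular and duct differentiated cells had more Dsg1a than Dsg3 reads, against 18 of 69 basal and 7 of 56 bulge cells. Of these cells, 39 of the 58 infundibular and duct differentiated cells held reads of both desmogleins, and 26 of the 49 interfollicular ones held Dsg1a without Dsg3. In sebocyte cells 16 of 24 held neither. Of the reads of the desmocollins Dsc2 and Dsc3 together, Dsc2 took 3.78% ± 3.37 in infundibular and duct differentiated and 0.08% ± 0.16 in interfollicular differentiated cells (n = 4), and 4.42% ± 7.65 in sebocyte cells (n = 3), where RepM had 13.3% and the other replicates 0%.

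**Figure D4:**
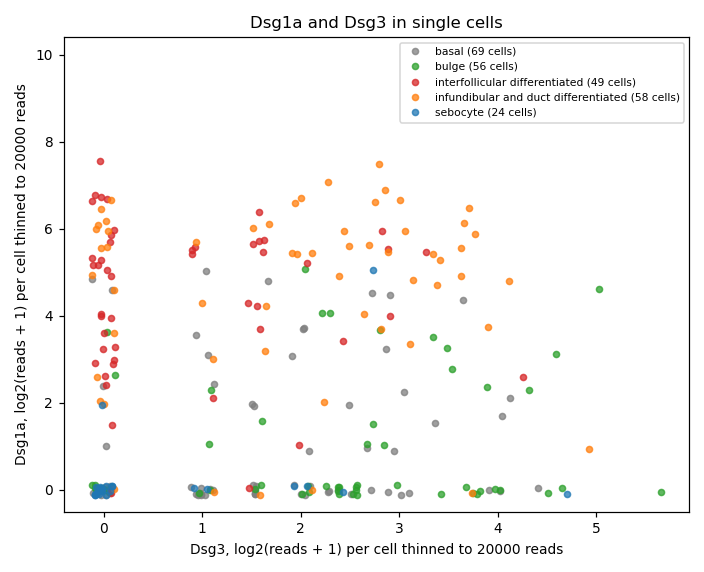
Reads of Dsg3 (x axis) and Dsg1a (y axis), both as log2(reads + 1), in each cell thinned to 20000 reads and placed in a class, with a small random shift to part equal values and colours for the classes. The differentiated cells lie high on the Dsg1a axis, many of the interfollicular ones at 0 for Dsg3, and most bulge and basal cells lie along the bottom.

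The class differences of the members did not differ between the groups beyond their error. The change of the differentiated against undifferentiated difference between 38w and 38wUW was called for 0 of 9 members and 0 of 9996 genes (0%), with 0 members and 709 genes at an unadjusted p under 0.05 (edgeR). On the 38w side the bulge class entered this fit through RepL alone, with 10 cells, so a change missing here is not shown to be absent. For Dsg1a that change was 1.58 ± 0.93 log2 units (SE), the smallest p among the members (unadjusted 0.11, edgeR adjusted 0.72). For Dsp it was 0.60 ± 0.52, for Jup 0.13 ± 0.75 and for Perp -0.11 ± 0.36. The make-up of the replicates in classes was uneven, basal cells forming 40.0% of RepI and 30.7% of RepL but 17.1% of RepM and 16.9% of RepN, and bulge cells 7.14%, 13.3%, 23.2% and 37.3%. Interfollicular differentiated cells formed 28.6%, 24.0%, 9.76% and 8.43%, and infundibular and duct differentiated cells 17.1%, 9.33%, 30.5% and 21.7%. Sums over all cells of a replicate carry this make-up. Within single classes no member was called between the groups in the 4 classes that could be fitted. The log2 fold change of Dsp was 0.34 within basal and 0.34 within interfollicular differentiated cells. It was -0.25 within bulge and -0.59 within infundibular and duct differentiated cells, and -0.53 over all cells, none of these being called. The part of the class make-up in the differences between the groups was not tested.

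Across single cells the members formed an uneven set. After the mean of each plate was taken out, 11 of the 36 pairs had a Spearman rho of 0.3 or more over the 277 thinned cells, and the median over pairs was 0.14. Dsg1a and Perp were the closest pair (0.62, and 0.54 to 0.71 within single plates), followed by Dsp and Dsg1a (0.58, 0.53 to 0.69) and Dsp and Perp (0.49, 0.42 to 0.72). Jup and Pkp1 went with these genes and with each other at 0.31 to 0.43. Dsc3 went with Perp at 0.38 and with Dsg1a at 0.29. Dsg3 stayed apart, with rho between -0.11 (Jup) and 0.18 (Dsp). Pkp3 reached at most 0.22 (with Jup), and Dsc2, with reads in few cells, 0.16. With the means of plate and class both taken out, over the 256 of these cells that had a class, the rho was 0.35 for Dsg1a and Perp, 0.35 for Dsp and Dsg1a and 0.25 for Dsp and Perp. Only 2 pairs were then at 0.3 or more, and the median was 0.09. These cells share plates and libraries, and the values are descriptions.

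**Figure D5:**
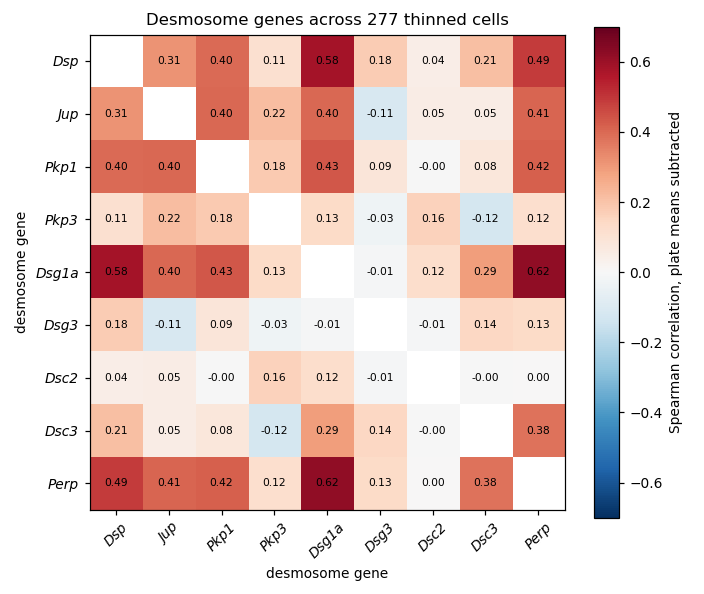
Spearman correlation of each pair of desmosome genes (both axes) across 277 cells thinned to 20000 reads, with plate means subtracted, from blue (negative) to red (positive). Dsp, Jup, Pkp1, Dsg1a and Perp form a block at 0.31 to 0.62, Dsc3 reaches 0.38 with Perp, and the rows of Dsg3, Dsc2 and Pkp3 are pale.

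The genes most like the mean of the members across these cells included several class markers. Of 4180 candidates found in at least 20% of the thinned cells, with a median rho of 0.00, the 10 most alike were Krtdap (0.67, and 0.56 to 0.79 within plates), Gltp (0.64), Calm4 (0.64), Pof1b (0.61), Krt10 (0.60), Dbi (0.57), Ly6d (0.56), Cst6 (0.55), Sbsn (0.55) and Lgals3 (0.53). Krtdap is a keratinocyte differentiation-associated protein, Krt10 a suprabasal keratin, Sbsn a secreted protein of upper layers and Pof1b an actin-binding protein found at epithelial junctions. Krtdap, Krt10 and Cst6 are also among the class markers. The mean of the members correlated with the total reads of a cell at 0.05.

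Other desmosome genes were also higher in differentiated cells. Of 7 tested genes of that list, 3 were called higher and 0 lower in the differentiated classes, with a median log2 difference of 3.75 against -0.13 over all genes. Dsc1, the desmocollin of upper layers, averaged 342 ± 222 CPM in interfollicular and 441 ± 273 in infundibular and duct differentiated cells, against 9.66 ± 10.2 in basal and 0.229 ± 0.459 in bulge cells (edgeR adjusted p = 1.7e-04). Dsg1b differed by 3.88 ± 0.63 log2 units (SE; edgeR adjusted p = 0.0010), and Evpl, the cornified envelope protein envoplakin, by 3.75 ± 0.91 (edgeR adjusted p = 0.019). Cdsn (corneodesmosin) was called across classes, with 259 ± 246 CPM in infundibular and duct differentiated cells and at most 3.42 CPM on average elsewhere (edgeR adjusted p = 0.0059). Dsc1 and Dsg1b stayed past the threshold in the contrast without any 1 replicate or plate C114. Evpl did not without RepI, RepL or RepM (adjusted p 0.058, 0.10 and 0.14), nor did Cdsn across classes without RepI, RepM or C114 (0.052, 0.068 and 0.053). Between the groups 0 of 9 genes of the list were called, and Dsc1, with the smallest p, stood at 58.3 and 102 CPM in 38w and 177 and 225 CPM in 38wUW (edgeR adjusted p = 0.73). Cdsn came next, at 69.0 and 1.55 CPM against 156 and 19.5 CPM (edgeR adjusted p = 0.83), and it was called lower in 38w without RepI (-5.58, edgeR adjusted p = 0.0047).

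The other junctions were mixed. Of 10 adherens junction genes tested in the contrast, 1 was called higher and 1 lower in the differentiated classes. Nectin4, a nectin adhesion receptor, was higher by 4.07 ± 0.88 log2 units (edgeR adjusted p = 0.0088), and Cdh3, the basal P-cadherin, was lower by 3.35 ± 0.96 log2 units (edgeR adjusted p = 0.048). Of 9 tight junction genes, Cldn4 (4.93 ± 1.05, edgeR adjusted p = 0.0085) and Cgn, which encodes cingulin (3.65 ± 0.999, edgeR adjusted p = 0.040), were called higher and 0 lower. Of 6 gap junction genes, Gjb6 (connexin 30) was called lower (-4.10 ± 1.09, edgeR adjusted p = 0.033). Each of these calls was lost when some single replicate was left out: the adjusted p of the contrast reached 0.059 for Nectin4 and 0.26 for Cdh3 without RepL, and 0.080 for Cldn4, 0.20 for Cgn and 0.15 for Gjb6 without RepM. Without plate C114, Cgn (0.11) and Gjb6 (0.056) were lost. The median log2 difference was 0.87 for the adherens, 1.63 for the tight and 1.18 for the gap junction list. Between the groups 0 of 11, 0 of 9 and 0 of 6 were called. The smallest p values belonged to Tjp1, encoding the tight junction scaffold ZO-1 (13.2 and 15.7 CPM in 38w, 121 and 103 CPM in 38wUW), and Ocln (6.79 and 18.6 against 53.9 and 63.2 CPM), both with an edgeR adjusted p = 0.61. Vcl and Nectin2 (edgeR adjusted p = 0.70 and 0.78) and Gjb5 and Gjb6 (edgeR adjusted p = 0.65 and 0.74) came next in their lists. Of these genes, Tjp1 (-2.75, edgeR adjusted p = 0.034) and Gjb5 (2.86, edgeR adjusted p = 0.020) were called without RepL.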

How the data were processed

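The authors mapped single-end reads with Salmon 0.13.1 to Ensembl 101 transcripts (GRCm38), per the labels and the study's methods, and deposited 1 table of estimated counts per gene and cell, unscaled (3.60% of values carry decimals). Per the study's methods, the authors kept cells with 1000 genes or more and at most 50% of reads from mitochondrial genes. Estimated counts were rounded and summed per replicate tag, or per plate and marker class, and tested over all genes with edgeR 4.0.16 in R 4.3.3 (TMM, filterByExpr, quasi-likelihood F-test, Benjamini-Hochberg, threshold 0.05), with no block between the groups and the plate as a block between classes. Cells were not taken as replicates. DESeq2 1.42.0 was an alternative. The fits were tested on simulated data with large changes and no plate effect. That test cannot show how they behave with the plate differences seen here. Class scores are means of z-scored log2(counts per 10000 + 1). Doublets were not called, since wells were sorted for single cells. The names of 15 cells carry an unexplained suffix (IDTILL or MBULK), among them a RepL well with MBULK. The study's methods also describe mini-bulk libraries, and whether MBULK marks one is not given. On C114, 11 wells appear with and without IDTILL. The pairs correlated no more (median r 0.63 of log values) than cells of different wells (0.63) and were kept apart. Transcript length and GC content are those of the GENCODE M21 transcript with the longest coding sequence, matched for 97.8% of genes.

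The labels carry a batch tag and an alternative one that disagree for 2 plates, so neither entered the main fit. The members, gene lists and markers were chosen with earlier results of these data known. All members are named. From each junction list, up to 3 genes called per comparison are named (1 such result is not reported here), or the 2 with the smallest p where none was called, and the 10 genes most like the members' mean. Alternatives covered the test, scaling, filter, library size, depth, plates, batch tags, class rule, left-out replicates and left-out cells.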

Additional observations from a re-analysis of the deposited data

Results flagged for a closer look

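In Dsg3 the difference between the differentiated and the undifferentiated classes was set apart in 1 replicate. It was -1.52 log2 units in RepI, against -0.87 in RepL, -0.81 in RepM and -0.79 in RepN, a gap of 0.889 of the whole range, past Dixon's limit for 4 values. All 4 replicates had the same direction. RepI is the replicate with plate C114, and its bulge class was 5 cells, 2 on C114 and 3 on C118. Of its 28 basal cells 23 were on C114, where Dsg3 stood at 64.2 CPM, against 360 CPM on C118. Plate and class were thus mixed in this value, and the part of either in the gap was not tested. Of the 9 members, 1 was set apart in this way, and chance does so for about 1 group in 20.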

How the results depend on the processing

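With 2 replicates in each group, and C114 carrying most reads of RepI, the comparison between the groups has little power, and a difference missing there is not shown to be absent. Between 38w and 38wUW, 0 members were called under every alternative except without RepL, and 0 to 3 over the left-out replicates. Members called ranged from 4 to 7 across classes and from 3 to 5 in the contrast, all of it within 1.5 times. Which genes were called across classes also changed. With at least 8 cells per sum, Jup and Dsg3 dropped out and Dsc2 was called, and with no margin between classes Dsg3 dropped out. Pkp1 was called across classes with DESeq2, with plate-centred markers and in thinned cells. No member changed direction in the contrast (135 values), Pkp1 being called only in thinned cells (0.99, adjusted p = 0.018).

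Between the groups, 27 of 187 log2 fold changes of members turned, and 6 of 159 of the named genes of other lists, none of them called. With RepI from C118 alone the turned values were 0.041 for Dsg1a, 0.024 for Dsg3, 0.29 for Dsc3, 0.62 for Perp and -0.80 for Nectin2. Within basal cells they were 0.34 for Dsp, 0.55 for Dsg1a and 1.76 for Dsc2, and within interfollicular differentiated cells 0.34 for Dsp and 0.59 for Dsg1a. Within infundibular and duct differentiated cells they were -0.0062 for Pkp1, 0.57 for Perp, 0.17 for Cdsn and -1.40 for Gjb5, and within bulge cells 0.73 for Perp. With GC content corrected they were 0.12 for Dsc3 and 0.19 for Perp. Perp, at about 0, also turned with DESeq2 and with its size factors (both 0.071), without mitochondrial and ribosomal protein genes (0.019), with no filter (0.0021), with plates as units (0.26), with equal weight per cell (0.027), in thinned cells (0.055) and without the 15 suffixed cells (0.0065). Over the left-out replicates, Dsg1a ranged from -1.49 to 0.030, Dsc3 from -1.26 to 0.19, Perp from -0.45 to 0.38, Cdsn from -5.58 to 1.14, Gjb5 from -0.044 to 2.86 and Nectin2 from -0.37 to 2.16. The cause was not tested.

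Without C114, the difference in the share of cells turned to -11.0 percentage points for Pkp3, 2.06 for Dsg1a and 1.33 for Dsc3. Over the left-out replicates it ranged from -1.03 to 11.5 for Pkp1, -1.85 to 24.0 for Pkp3, -12.03 to 2.93 for Dsg1a, -8.08 to 0.19 for Dsc2 and -6.02 to 1.33 for Dsc3. Members found per cell averaged 6.26 over the replicates, 6.89 unthinned, 5.65 at 10000 reads, 6.67 at 40000 reads and 5.41 when 2 reads were needed, as fewer reads find fewer genes. The median pairwise correlation, 0.14, was 0.12 to 0.19 over the left-out replicates. Sebocyte cells alone could not be fitted between the groups, since RepI had 4.

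The GC correction and the alternatives for the correlations were chosen after seeing the data. The groups share no replicate numbers. Fits per plate with either batch tag as a block, whose 2 values occur in both groups, called 0 members and turned none of them (1 and 4 genes called), and Dsc2 was then at -3.77 and -3.83, against -1.67.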
